A study of Homo sapiens with 2 samples.

Results

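The NF-kappaB family and its regulators were followed in RNA that co-precipitated with CRTC2, which is best known as a coactivator of CREB-driven transcription. The 9 genes are the Rel family members NFKB1 (gene 4790), NFKB2 (4791), RELA (5970), RELB (5971) and REL (5966), the inhibitors NFKBIA (4792) and NFKBIB (4793), and the IkappaB kinases IKBKB (3551) and CHUK (1147). Their members were taken from the deposited peak list: a peak in an exon or intron was given to the gene named in its annotation, and any other peak to the gene with the nearest transcription start site. This gave 139 of 175546 peaks and 9 of 19480 genes that hold a peak. The 9 genes were chosen by their pathway with the folds, q-values and peak numbers of this same list already known, so these values are described without a test.

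The cells were HCCLM3, an established human hepatocellular carcinoma line labelled wild type, with no treatment named. The series has 1 library of RNA immunoprecipitated with CRTC2 (RIP) and 1 library of input RNA from the same line, and no replicate of either. No control-antibody precipitation was analysed here, so RNA bound to CRTC2 and RNA carried along with the beads cannot be told apart. The series concerns joint condensates of CRTC2 with YTHDF2, a cytoplasmic reader of N6-methyladenosine, and the RIP was made to find CRTC2 target transcripts.

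NF-kappaB is a dimer of Rel family proteins that share a DNA-binding Rel homology domain. In resting cells IkappaB proteins hold it in the cytoplasm. Signals such as tumour necrosis factor activate the IkappaB kinases, which mark IkappaB for degradation and free the dimer to enter the nucleus. The NFKB1 and NFKB2 proteins are made as precursors whose ankyrin repeats act like an IkappaB, and are processed into the DNA-binding subunits p50 and p52. In liver the pathway is known for its part in hepatocyte survival and in inflammation-linked cancer.

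The fold of a peak is the ratio the authors deposited for its summit, read here as RIP over input, and q is their q-value for the peak. Both the whole number of RIP fragments and the local level of input were worked back from fold and p. At single summits 1 input fragment counted as 0.634, so an input level below 0.634 means less input than 1 fragment at the summit, and 0.0298 was the lowest level. The range after a fold is its 95% interval, exact Poisson for the RIP count with input held fixed, and covers counting error only. Over the whole list the median fold was 1.89, the median summit held 2 RIP fragments, the deepest held 49, and 46.2% of summits held only 1. Of the liver and epithelial markers checked, 12 of 13 held a peak, among them KRT8 and KRT18 with up to 32 and 31 fragments and ALB with 5, while SERPINA1 held none. Of the blood and immune markers 5 of 10 held one. At q of at most 0.05 stood 1 of the 12 liver genes, APOB (q of 0.00426), and 0 of the 5 blood genes, against 11.3% of all genes with a peak. The APOB peak was 6408 bp wide and rested on 3 fragments at an input level of 0.0298. PTPRC, CD3D, CD3E, MS4A1 and NKG7 held no peak, and CD68 reached 15 fragments at a fold of no more than 2.01.

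Peaks past the limits lay in NFKB1, CHUK, NFKBIA and REL, and none lay in RELA, NFKB2, RELB, NFKBIB or IKBKB. Of the 139 peaks, 10 had a q of at most 0.05 (7.19%), against 1.63% of all 175546 peaks. The counts per gene were 4 in NFKB1, 3 in NFKBIA, 2 in CHUK and 1 in REL. A fold of at least 4 was also reached by 10 peaks, against 1.63% of all peaks, and these lay in the same 4 genes. By gene, 4 of 9 members had a peak at this q, against 11.3% of all genes with a peak, and 4 of 9 had one at a fold of at least 4, against 11.3%. Since the choice of genes used these values, nothing is read from the distance to the background.

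**Figure D1:**
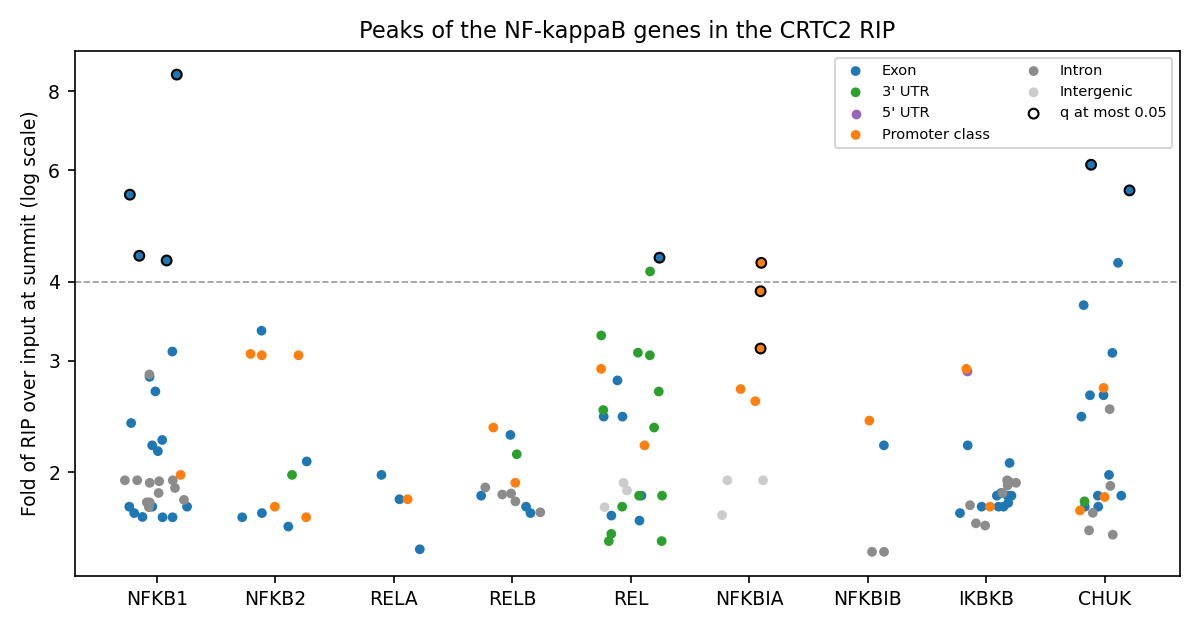
Fold of RIP over input (log axis) for each of the 139 peaks of the 9 genes, coloured by annotation class, with a black rim where q was at most 0.05 and a dashed line at a fold of 4. Horizontal scatter within a gene has no meaning. The rimmed points lie in NFKB1, REL, NFKBIA and CHUK, and the highest, at 8.50, is in NFKB1.

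Of the 139 peaks, 62 lay in exons (44.6%), where the whole list had 30.4%. Peaks of 1 gene are not independent, NFKB1 alone gave 18 of the 62, and the rule that assigned peaks used these classes, so the shares are descriptions. Introns held 32 (23.0%, against 26.6% of all), the promoter class 22 (15.8%, against 20.9%), 3′ UTRs 16 (11.5%, against 13.8%), intergenic sequence 6 and a 5′ UTR 1. The exon peaks rested on a median of 4 RIP fragments, as did exon peaks of the whole list, and 7 of the 62 reached q of at most 0.05, against 2.98% of all exon peaks. Intron peaks were shallow here as in the whole list: 30 of 32 rested on 1 fragment, against 85.8% of all intron peaks, the median fold was 1.85 in both, and none reached that q, against 0.372% of all. The median fold of all 139 peaks was 1.92.

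NFKB1, which encodes the p105 precursor of p50, held the highest peak of the family and the most peaks, 31, of which 18 lay in exons, 12 in introns and 1 in the promoter class. Exon 6 of 24 stood at a fold of 8.50 (4.35 to 15.4) on 9 RIP fragments at an input level of 0.177, with q of 1.11e-08 (hg38 chromosome 4, 102567001 to 102567154). Exon 8 stood at 5.49 (2.51 to 11.03) on 6 fragments, with q of 0.00297 (102578899 to 102579067). Exon 5 stood at 4.40 (1.84 to 9.88) and exon 23 at 4.32 (1.81 to 9.72), on 4 fragments each. The q-values of exons 5 and 23 were 0.0221 and 0.0333. The intervals of these 4 peaks overlapped, and their order was not tested.

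Peaks covered 18 of the 24 NFKB1 exons, and exons 1, 2, 4, 15, 21 and 24 had none in the exon class. Of the 18 exon peaks, 11 had folds from 1.70 to 2.39. The lower folds were not all shallow: exon 13 held 12 RIP fragments, the most of the transcript, at a fold of 2.39 (1.32 to 4.04), since its input level of 4.44 matched 7 input fragments. Exons 6 and 14 both held 9 RIP fragments. Exon 14 stood at 2.83 (1.45 to 5.12) with an input level of 2.53, which is 4 input fragments, while exon 6 had an input level below 1 fragment. The 4 NFKB1 peaks at q of at most 0.05 all had input levels below 0.634, from 0.137 to 0.275, and 7 of the 18 exon peaks did. How far the spread of folds along NFKB1 comes from the few input fragments was not tested. Where every peak goes to the gene with the nearest start site, NFKB1 has no peak at this q, and 3 of the 9 genes have one in place of 4. The summits of the 4 NFKB1 peaks at this q nonetheless lay within the gene.

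**Figure D2:**
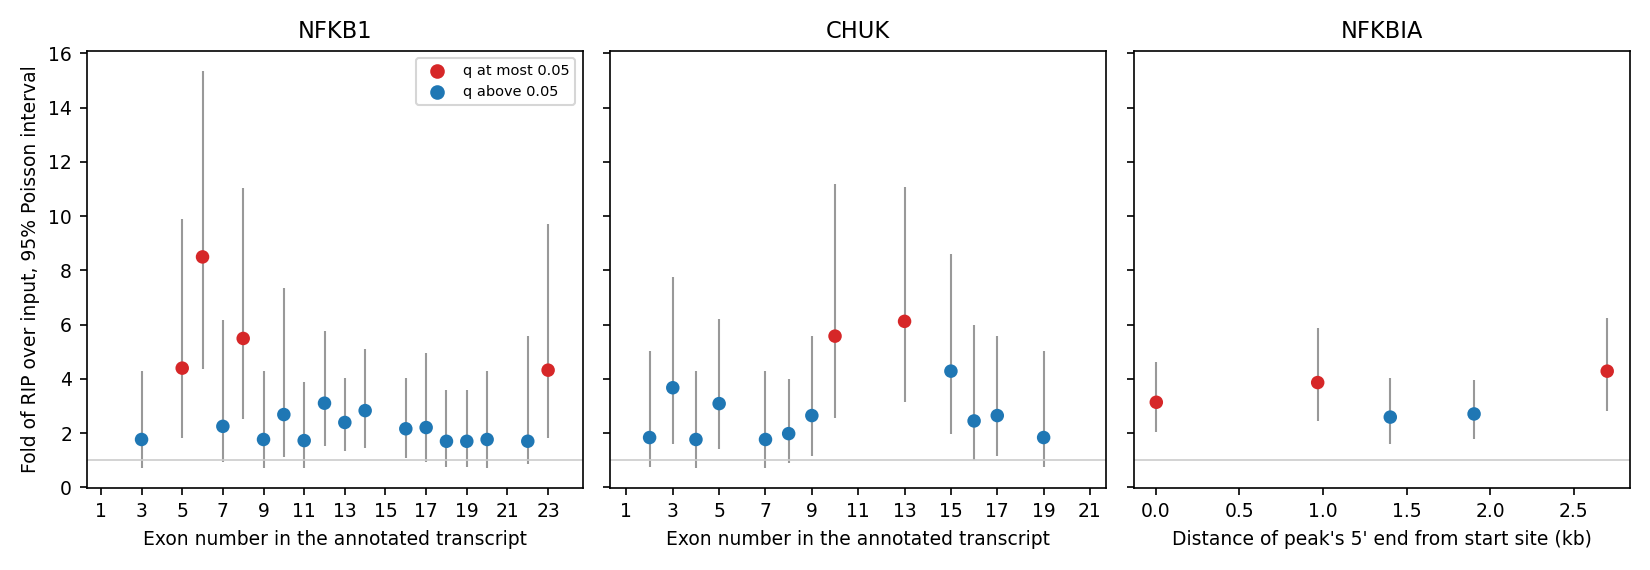
Fold of RIP over input for the exon-class peaks of NFKB1 and CHUK by exon number, and for the 5 peaks within NFKBIA by distance from its start site in kb. Bars are 95% intervals, exact Poisson for the RIP count, red marks q of at most 0.05, and exons without a point had no exon-class peak. NFKB1 peaks at exon 6 (8.50) and CHUK at exon 13 (6.12), and the NFKBIA intervals are narrower because its summits held 18 to 25 fragments.

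The 3′ end of NFKB1 was also covered, but by a peak given to another gene. A 685 bp peak in the 3′ UTR class (chromosome 4, 102616486 to 102617170) lay within the RefSeq bounds of NFKB1 at a fold of 3.09 (1.41 to 6.20) on 6 fragments. The list assigned it to NFKB1-AS1, an antisense transcript, because that start site was nearest. The summit of this peak lay upstream of the NFKB1-AS1 start site and outside the annotated NFKB1-AS1 transcript. The peak list carries no strand, so reads from NFKB1 and from an antisense RNA beyond that annotation cannot be told apart. The NFKB1 intron peaks included a peak in intron 11 at 2.85 on 2 fragments. The other 11 rested on 1 fragment each, and the widest of the 12 was 18031 bp.

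REL, which encodes c-Rel, a subunit best known from lymphocytes, held 25 peaks, of which 13 lay in its 3′ UTR and 7 in exons. Exon 8 of 10 reached a fold of 4.37 (1.82 to 9.81) on 4 RIP fragments at an input level of 0.145, with q of 0.0259 (chromosome 2, 60920047 to 60920104). The highest 3′ UTR peak reached 4.15 (1.74 to 9.33), also on 4 fragments, with q of 0.0854. The 13 peaks of the 3′ UTR ran from 1.56 to 4.15 with a median of 2.35. No REL summit held more than 4 RIP fragments, 8 of the 25 held 1, and no input level exceeded 1.27, which is 2 input fragments. REL thus had many shallow peaks. None was annotated to exons 1, 4, 5 and 6, although the peak annotated to exon 3 was 24170 bp wide. With at least 5 RIP fragments required, REL has no peak left.

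RELA, the p65 subunit that carries the main activation domain of NF-kappaB, was the Rel gene with the deepest input and the lowest folds. Its 4 peaks stood at 1.51 (0.837 to 2.55) in exon 8, 1.81 (0.955 to 3.20) in exon 6, 1.81 (0.955 to 3.20) in the promoter class and 1.98 (0.906 to 3.98) in exon 11. They rested on 12, 10, 10 and 6 RIP fragments at input levels of 7.60, 5.07, 5.07 and 2.53. Every RELA interval reached below 1, although the authors' caller listed the peaks at p below 0.05. All 4 intervals overlapped those of the 11 lower NFKB1 exon peaks.

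NFKB2, which encodes the p100 precursor of the non-canonical pathway, held 11 peaks and none at q of at most 0.05. The highest was in exon 14 of 23 at 3.35 (1.66 to 6.23) on 8 fragments (chromosome 10, 102399619 to 102399713), with q of 0.486. The promoter class held 5 peaks, with 3 of them between 3.06 and 3.08 on 3 to 4 fragments. RELB, the partner of p52 in the non-canonical pathway, held 12 peaks with none above 2.35. Its 5 intron peaks rested on 1 fragment each, and its 4 exon peaks stood at 1.72 to 2.29 on 2 to 4 fragments. The RELB peak in the 3′ UTR class lay before the start site, outside the gene. A pair of peaks at the 3′ end of RELB, at 1.84 and 2.55, was assigned to the start of the neighbouring gene CLASRP. That start site was also the nearest for 5 of the 12 RELB peaks.

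NFKBIA, which encodes IkappaBalpha, the inhibitor that NF-kappaB itself induces, was the most deeply covered member. All 5 peaks within this short gene (3237 bp) fell in the promoter class, which takes any peak within 3000 bp of a start site, so it had no exon-class peak. They lay along the gene from its start to its end. The peak nearest the 3′ end stood at 4.28 (2.83 to 6.25) on 25 RIP fragments against an input level of 5.07, with q of 2.43e-05 (chromosome 14, 35401614 to 35402049). The next toward the start stood at 2.71 (1.77 to 3.97) on 24 fragments and at 2.59 (1.59 to 4.01) on 18, and neither reached q of 0.05. A peak 969 bp from the start site reached 3.86 (2.43 to 5.87) on 20 fragments with q of 0.00203. The peak at the start site reached 3.14 (2.05 to 4.61) on 24 fragments with q of 0.00826. All 5 intervals lay above 1 and all overlapped each other. These were the peaks with the most RIP fragments of any member, and their input levels of 4.44 to 8.24 correspond to 7 to 13 input fragments. The other 3 NFKBIA peaks were intergenic, on 1 fragment each.

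NFKBIB, which encodes IkappaBbeta, held 4 peaks. The promoter class stood at 2.41 (1.10 to 4.85) on 6 fragments and exon 3 of 5 at 2.21 (0.922 to 4.96) on 4, the closer of 2 solutions. Its 2 intron peaks stood at 1.50 on 1 fragment each. The interval of the highest NFKBIB peak overlapped those of all 5 peaks within NFKBIA, and the difference in fold was not tested. The fragment counts did not overlap, at 4 to 6 for the promoter-class and exon 3 peaks of NFKBIB and 18 to 25 within NFKBIA. The input levels of the same peaks did not overlap either, at 1.27 to 1.90 for NFKBIB and 4.44 to 8.24 for NFKBIA.

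CHUK, which encodes IKKalpha, the kinase of the non-canonical pathway, held 22 peaks, 13 of them in exons. Exon 13 of 21 reached a fold of 6.12 (3.13 to 11.07) on 9 RIP fragments against 1 input fragment, with q of 0.000428 (chromosome 10, 100204477 to 100204589). Exon 10 reached 5.58 (2.55 to 11.2) on 6 fragments at an input level of 0.255, with q of 0.00203 (100209567 to 100209732). Exon 15 reached 4.28 (1.96 to 8.61) on 6 fragments with q of 0.128. The highest folds thus lay between exons 10 and 15, while exon 3 stood at 3.67 and exon 5 at 3.09. Exon 8 held as many RIP fragments as exon 10, 6, but stood at 1.98 (0.906 to 3.98) over 4 input fragments. Of the peaks given to CHUK, 3 lay upstream of the gene. Within the gene, 3 further peaks at its 3′ end, up to a fold of 3.06, were assigned to the neighbour ERLIN1. The start site of ERLIN1 was also the nearest for 8 of the 22 CHUK peaks, among them exons 13 and 15 but not exon 10.

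IKBKB, which encodes IKKbeta, the main kinase of the canonical pathway, also held 22 peaks but none above a fold of 2.91. Its 11 exon peaks stood at 1.72 to 2.21 on 1 to 5 fragments. All 8 intron peaks rested on 1 fragment. The highest folds, 2.91 (1.21 to 7.99) in the promoter class and 2.89 (1.20 to 7.93) in the 5′ UTR, were those of peaks 10977 and 3851 bp wide on 2 fragments each, at input levels of 0.0298 and 0.0373. The highest IKBKB exon peak, exon 5 at 2.21 (0.922 to 4.96), rests on the closer of 2 solutions. Its interval overlapped that of CHUK exon 13, which began at 3.13, and the difference between these peaks was not tested. Another 2 peaks in the 3′ UTR of IKBKB, at 3.06 and 2.21 on 4 fragments each, were assigned to the neighbour POLB. The start site of POLB was also the nearest for 14 of the 22 IKBKB peaks.

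Depth and fold gave different orders of the members. Over peaks within each gene that were not in introns, the median number of RIP fragments at the summit was 24 for NFKBIA, 10 for RELA, 5 for CHUK and NFKBIB, 4 for NFKB1 and NFKB2, and 2.5 for RELB, REL and IKBKB. The median input level followed as 6.34 for NFKBIA and 5.07 for RELA, then 1.69 for NFKB2, 1.58 for NFKBIB, 1.27 for NFKB1, 0.950 for IKBKB, 0.690 for RELB, 0.634 for CHUK and 0.290 for REL. The median fold over the same peaks was 3.14 for NFKBIA, 2.55 for CHUK, 2.40 for REL, 2.31 for NFKBIB, 2.21 for NFKB1, 1.98 for NFKB2, 1.88 for RELB, 1.84 for IKBKB and 1.81 for RELA. NFKBIA was thus high in fragments and in fold, and RELA high in fragments and lowest in fold. Of the 10 member peaks at q of at most 0.05, 6 had an input level below 1 fragment, and the others were CHUK exon 13 and the 3 NFKBIA peaks.

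**Figure D3:**
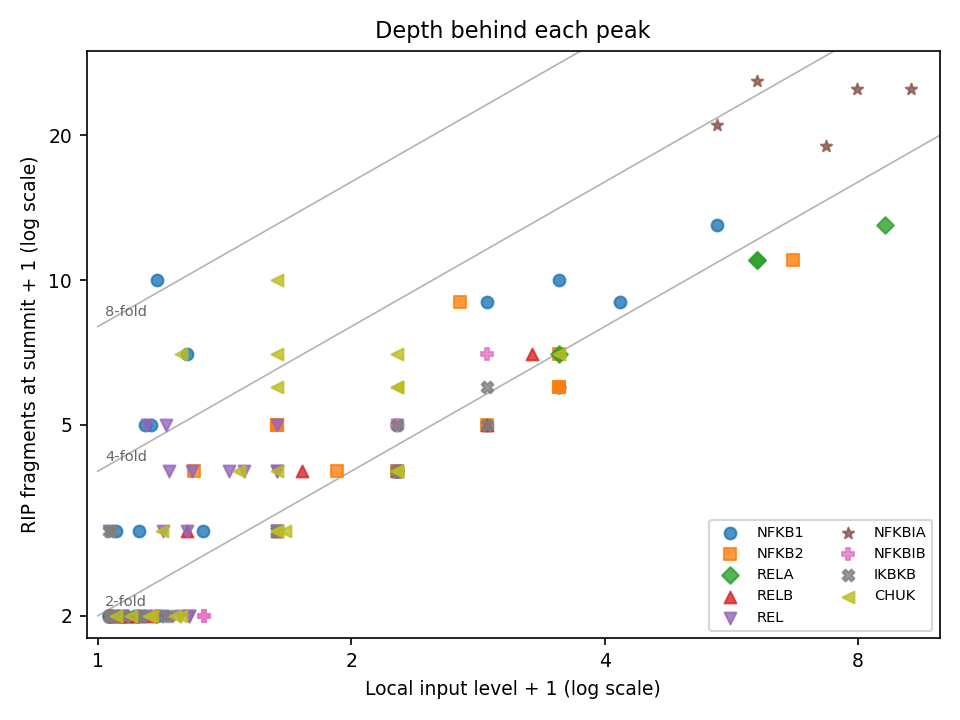
RIP fragments at the summit plus 1 against the local input level plus 1, both on log axes, for the 139 peaks, with a symbol for each gene and grey lines of equal fold at 2, 4 and 8. The NFKBIA peaks lie at the upper right with 18 to 25 fragments, the RELA peaks near the 2-fold line, and NFKB1 exon 6 at the upper left with 9 fragments over an input level of 0.177.

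On either side of the q limit of 0.05 stood NFKB1 exon 23 (q of 0.0333, fold 4.32) and an NFKBIA peak (q of 0.0696, fold 2.71). The next outside was the REL 3′ UTR peak (0.0854). CHUK exon 15, the 5′ UTR peak of IKBKB and promoter-class peaks of REL and IKBKB (fold 2.91 each) shared a q of 0.128. At the fold limit of 4, the REL 3′ UTR peak (4.15) lay just inside and the NFKBIA peak at 3.86 just outside.

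Promoter sequence was examined because several of these genes are known targets of NF-kappaB and because 4 promoter windows overlapped a peak of their gene. RefSeq windows of 300 bases (GRCh38.p14, 250 before to 50 after a start site) matched 7 members with 12 windows; RELB and IKBKB had no entry. The kappaB decamer consensus, searched on both strands, was found in 6 of the 12 windows and in 5 of the 7 members, against 5.91% of all 35116 windows. The CRE half-site TGACG, also on both strands, was found in 9 of 12 windows and 6 of 7 members, against 24.6% of all windows, and the full palindrome TGACGTCA in none of the 12, against 1.85%. Some genes have more than 1 window, and the genes were not chosen at random, so these counts are descriptions. The windows of NFKBIA, NFKB2 and NFKB1 shown are those that both held a decamer match and overlapped a peak of the gene. Capitals mark the matches, each printed window runs 5′ to 3′ along the gene and ends 30 bases after the start site.

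NFKBIA, chr14:35404720-35404999, minus strand: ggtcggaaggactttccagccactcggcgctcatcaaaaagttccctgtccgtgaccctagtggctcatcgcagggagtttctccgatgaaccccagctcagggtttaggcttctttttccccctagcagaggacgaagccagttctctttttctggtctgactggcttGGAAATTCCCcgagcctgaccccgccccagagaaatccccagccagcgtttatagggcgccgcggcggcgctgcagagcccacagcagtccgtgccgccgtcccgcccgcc

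NFKB2, chr10:102394328-102394607, plus strand: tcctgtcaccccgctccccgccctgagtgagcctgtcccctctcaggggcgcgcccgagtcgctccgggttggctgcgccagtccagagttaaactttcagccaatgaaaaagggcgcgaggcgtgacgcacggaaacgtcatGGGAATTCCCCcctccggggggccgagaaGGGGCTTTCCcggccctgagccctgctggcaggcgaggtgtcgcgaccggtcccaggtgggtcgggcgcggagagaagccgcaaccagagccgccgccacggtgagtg

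NFKB1, chr4:102501109-102501388, plus strand: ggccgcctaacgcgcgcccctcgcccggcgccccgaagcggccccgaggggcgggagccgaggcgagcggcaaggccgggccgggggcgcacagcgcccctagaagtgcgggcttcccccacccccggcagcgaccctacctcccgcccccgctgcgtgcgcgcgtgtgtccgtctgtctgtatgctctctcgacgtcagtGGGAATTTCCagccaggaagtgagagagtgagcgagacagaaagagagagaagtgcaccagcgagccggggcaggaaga

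The NFKBIA match begins 81 bases before the start site, and the RNA peak at a fold of 3.14 covers the first part of the transcript up to base 35404745. In NFKB2 overlapping matches begin 107 and 106 bases before the start site and a further match 78 bases before it. The NFKB2 peak of 48 bp over this start site stood at 3.08 (1.24 to 7.51) on 3 fragments. The NFKB1 match begins 49 bases before the start site, and a peak at 1.98 (0.906 to 3.98) overlaps the last 10 bases of the 300. All matches of the other windows are set side by side, each on the strand of the consensus, to show where they differ.

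REL, 47 bases before the start: GGGAAATTCC
REL other strand, 46 bases before the start: GGGAATTTCC
NFKB2 inner start site, 176 bases before it: GGGGCTTCCC
NFKB2 inner start site, 21 bases before it: GGGACTTTCC
NFKBIB second start site, 28 bases before it: GGGAATTTCC
NFKBIB second start site other strand, 27 bases before it: GGGAAATTCC

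NFKB1, NFKBIB and, on the other strand, NFKBIA and REL held the same 10 letters, GGGAATTTCC. The highest fold of a gene with a match ran from 2.41 in NFKBIB to 8.50 in NFKB1. CHUK and RELA had windows but no decamer match, and their highest folds were 6.12 and 1.98. A match says only that the letters are present, and RIP peaks measure RNA, not binding at a promoter.

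The rest of the pathway was described with 4 lists. Other IkappaB proteins, IkappaB kinase subunits and kinase relatives held a peak in 8 of 8 genes and none at q of at most 0.05 or a fold of at least 4, limits that 11.3% of all genes with a peak passed. The kinase TBK1, which phosphorylates IRF3, stood at 3.67 (1.61 to 7.75) in exon 9 of 21, its adaptor TANK at 3.64, the inducible nuclear IkappaB NFKBIZ at 3.53 and NFKBID at 3.40. IKBKG, the scaffold NEMO of the kinase complex, stood at 2.76, and its reads are of uncertain origin because a near-identical pseudogene copy lies nearby. The median of the highest fold per gene was 3.23 in this list and 3.35 among the 9 members, against 2.83 over all genes with a peak.

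Of 26 genes upstream of the kinases, 25 held a peak, 1 reached a fold of 4 and none q of 0.05, with a median highest fold of 3.07. Over all genes with a peak, 11.3% passed each limit. The adaptor TRAF3 stood at 4.05 (1.85 to 8.14) on 6 fragments, but this peak lay outside the TRAF3 gene and its count is the closer of 2 solutions. TAB3, an adaptor of the kinase TAK1, and TRAF5 both stood at 3.71 on 3 fragments with q of 0.0585, and RBCK1, a subunit of the linear ubiquitin ligase, at 3.67, as did RIPK1 and BIRC3. These folds lay in the exon and UTR classes, and RNF31 reached 3.92 outside them. CD40 held no peak.

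Negative regulators and the machinery that degrades IkappaB held a peak in 14 of 14 genes, with 4 at q of at most 0.05 and 3 at a fold of at least 4, and a median highest fold of 2.96. These are 28.6% and 21.4% of the list, against 11.3% of all genes with a peak under either limit. The shares, as those of the other lists, do not allow for the number of peaks per gene. That number ran here from 3 in PDLIM2 to 55 in ITCH. CUL1, the cullin scaffold of the ubiquitin ligase that takes up phosphorylated IkappaB, reached 5.60 (2.56 to 11.3) in exon 21 of 22 on 6 fragments with q of 0.00179, and 4.83 (2.73 to 8.01) in exon 14 on 13 fragments with q of 0.00266. The substrate receptor FBXW11 reached 4.90 (2.33 to 9.44) in its 5′ UTR, with q of 0.0221. Its 7 fragments are the closer of 2 solutions. The other receptor, BTRC, reached 3.78 (1.53 to 9.22) on 3 fragments with q of 0.0259. CYLD, a deubiquitinase that restrains the pathway, reached 4.36 (1.82 to 9.80) on 4 fragments with q of 0.0259. SKP1, the adaptor subunit of the same ligase as CUL1, held 13 peaks with none past either limit and a highest fold of 3.001. TNFAIP3, the induced inhibitor A20, stood at 2.47.

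Of 20 NF-kappaB target genes, 16 held a peak, 2 reached q of 0.05 and 1 a fold of 4, and the median highest fold was 2.97. The shares of 12.5% and 6.25% of genes with a peak lay near and below the 11.3% of all genes, and the genes named next are examples. The caspase inhibitor XIAP reached 4.85 (2.56 to 8.55) in exon 6 of 7 on 10 fragments with q of 0.00826. BCL2L1, which encodes the survival protein BCL-XL, reached 3.74 (1.51 to 9.12) in its intron 1 on 3 fragments with q of 0.0419. Within the exon and UTR classes, IRF1 stood at 3.75, the mitochondrial enzyme gene SOD2 at 3.64 and CFLAR, an inhibitor of caspase-8, at 2.96, none at that q. The highest fold of CFLAR in any class was 3.04. The chemokine gene CXCL2 reached 3.97, outside the exon and UTR classes. The inflammatory genes CCL2, IL6 and TNF and the survival gene BCL2A1 held no peak, and CXCL8 reached 2.89 on at most 2 fragments.

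**Figure D4:**
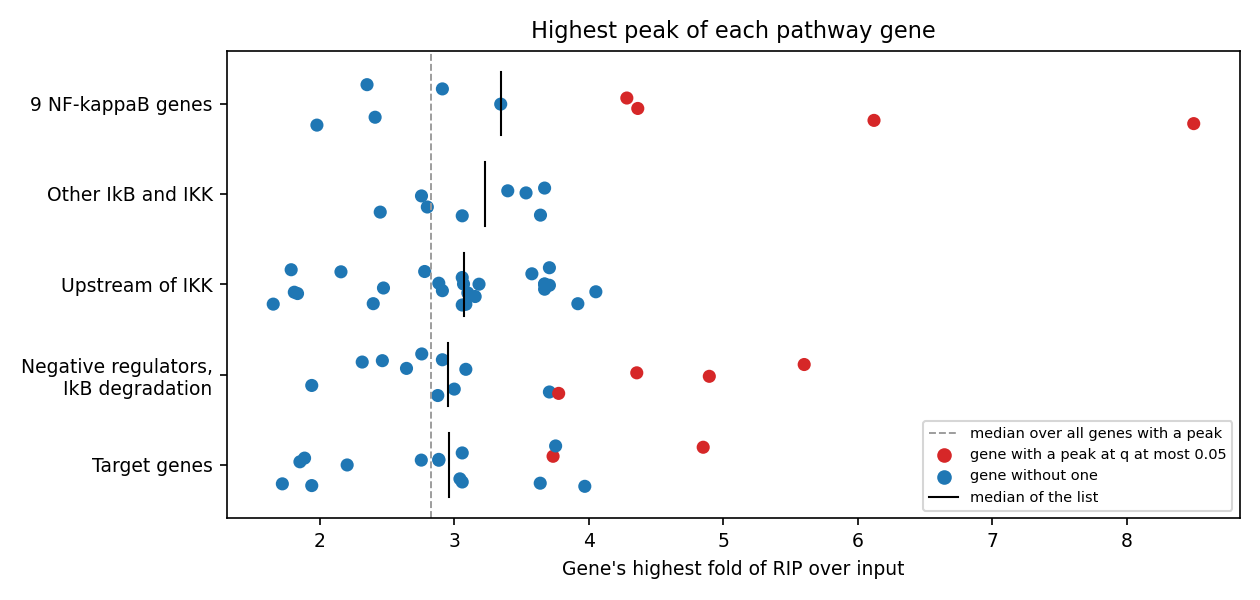
Highest fold of RIP over input of each gene with a peak, in the 9 NF-kappaB genes and 4 other lists of the pathway, with red points for genes that have a peak at q of at most 0.05, a black bar at each list's median and a dashed line at the median over all genes with a peak (2.83). Vertical scatter within a list has no meaning. Red points occur among the 9 genes, the negative regulators and the target genes, and NFKB1 lies farthest right.

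The genes most like NFKB1 were sought by the distance over 3 measures of exon and UTR peaks on a log2 scale, namely their number, the highest fold and 1 plus the number at q of at most 0.05. NFKB1 had 18 such peaks, a highest fold of 8.50 and 4 at that q. The nearest were CELF1, an RNA-binding protein gene, with 16 peaks, 7.03 and 4 (distance 0.322), GTF2IP1, a pseudogene of a duplicated family whose reads are of uncertain origin, with 17, 9.44 and 3 (0.366), and CADPS2, a gene of vesicle release, with 19, 7.55 and 3 (0.372). The likeness rests on 1 pair of libraries.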

How the data were processed

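CRTC2 RIP RNA and input RNA from HCCLM3 cells were measured in 1 library each. Per the labels' protocols, RNA came from a Magna RIP kit and libraries from a low-input SMARTer kit that keeps strand. HISAT2, MACS2 and the build hg38 are named, per the submitters' processing notes, with versions not given in the sources used here.

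What the authors deposited is 1 annotated peak list, with the fold enrichment (a linear ratio), the −log10 p and −log10 q of each peak. The last pair has spoiled headers and was identified by place and value. The deposited score equalled 10 times the −log10 p rounded down in 100% of peaks and was not used. The list holds peaks down to a −log10 p of 1.30, and −log10 q was 0 in 88.8%. Annotation classes, widths and assigned genes are the authors'.

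With a pseudocount of 1, the fold equals RIP fragments plus 1 over input plus 1, and p the Poisson probability of more fragments. Some whole number satisfied both within 0.001 (−log10 p) in 100% of peaks. It was unique in 97.5%, in 133 of the 139 member peaks and in all 10 at q of at most 0.05; elsewhere the closest was taken. Recovery was tested on simulated data. Library totals were not used here. An input level was written as whole input fragments where it lay within 0.01 fragments of a whole multiple of 0.634.

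Gene IDs matched RefSeq for 19463 of 19480 genes. Exonic means exon or UTR class. With 1 library per group no test between groups was made. All 9 members were named, each other list by its 4 highest exonic folds and every gene past the q limit of 0.05, and 3 genes most like NFKB1. Further genes named (RIPK1, BIRC3, RNF31, PDLIM2, ITCH, CXCL2, SERPINA1, KRT8, KRT18, ALB, the blood markers, IKBKG, CD40, TNFAIP3, CCL2, IL6, TNF, BCL2A1 and CXCL8) were chosen after their values were seen. Members and lists were chosen with earlier results of these data known. Python 3.11.15, scipy 1.17.1 and pandas 2.3.3 were used. Stricter limits on q, fold, fragments and width, other gene assignments and merged peaks were tried.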

Additional observations from a re-analysis of the deposited data

How the results depend on the processing

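Results for 6 measures were recomputed under 10 alternatives, the last pair of them (RefSeq bounds, and promoter-class peaks counted as exonic) chosen after seeing the data. The number of member peaks (139) was 10 at q of at most 0.05, 10 at a fold of at least 4, 34 with at least 5 RIP fragments, 80 where the exon or intron gene is also the assigned gene and 69 with the summit within the assigned transcript. Members with an exonic peak (8) numbered 3 at that q and 3 at that fold. The exon share (44.6%) was 70.0% at that q, 80.0% at that fold, 67.6% with at least 5 fragments and 31.3% where both gene names match. Limits on q, fold and fragments keep higher peaks by construction. Under every alternative run, 3 or 4 members passed the q limit and 3 or 4 the fold limit, with REL lost at 5 fragments and NFKB1 under the assigned-gene and transcript rules. The median of the members' highest exonic folds (3.12) was 2.74 with at least 5 fragments and 6.12 at the q limit and at the fold limit, where 3 members enter it. Its other values lay between these. Where the nearest start site decides every gene, the NFKB1 peaks past the limits go to its antisense neighbour. Their summits nonetheless lay within NFKB1 and outside the annotated transcript of that neighbour. No paired analysis was possible because each group has 1 library.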
